A study of Mus musculus with 16 samples.

Results

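Hoxa10, Hoxc10, Hoxd10, Hoxa11, Hoxc11 and Hoxd11 are the homeobox genes of paralog groups 10 and 11 in the HoxA, HoxC and HoxD clusters. They were found on the array by the RefSeq transcript that each probe was designed against, which gave 6 genes and 7 probes out of 22911 named genes and 56605 probes. Hoxa10 had 2 probes and each of the others had 1. Every array compared a sample labelled with Cy5 with a common control RNA labelled with Cy3, so a level here is log2(Cy5/Cy3). A level of 0 means equal signal in both dyes after scaling, which is an equal amount of RNA only where the probe has no dye effect.

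Hox genes encode transcription factors that mark position along the body axis, and they lie in clusters in the order in which they are used. In mouse embryos the Hox11 paralogs act in the metanephric mesenchyme, where they work with Eya1 and Pax2 to switch on Six2 and Gdnf, and loss of all of them stops the kidney at its first step. The Hox10 paralogs are needed in the renal stroma. Hox clusters are classic targets of Polycomb repressive complex PRC2, whose catalytic subunit is Ezh2 or Ezh1 and which places the repressive mark H3K27me3 on histone H3.

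The kidneys were taken whole from C57BL/6 embryos at embryonic day 17.5 and fall into 4 genotypes with 4 arrays each. The double knockout (EZH2-KO & EZH1-homoKO in the labels) lacked Ezh2 in nephron progenitors and 2 germline alleles of Ezh1. Ezh1-het kidneys (EZH2-KO & EZH1-hetKO) lacked the same Ezh2 and 1 Ezh1 allele, and Ezh2-KO kidneys (EZH2-KO & EZH1-WT) kept both Ezh1 alleles. Control kidneys were wild type, and their labels speak of kidney pairs. Ezh2 was deleted by way of Six2-positive cells, so those cells and their descendants lost it while stroma, ureteric bud, vessels and blood kept it, and loss of Ezh1 was in the germline and reached every cell. A level in a whole kidney averages over all of these cells, and fewer cells of a type cannot be told apart from less RNA per cell.

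The targeted genes followed the labels, with Ezh1 at -4.55 ± 0.08 in double-knockout, -1.13 ± 0.20 in Ezh1-het, 0.05 ± 0.33 in Ezh2-KO and -0.08 ± 0.26 in control kidneys (SD, n = 4 each). Of 5 Ezh2 probes, 1 averaged between -3.43 and -3.09 in the Ezh2-deficient genotypes and 0.09 in controls, and the other 4 averaged between -0.45 and -0.11 against 0.05 to 0.29 in controls. On each array 53.1% to 63.4% of probes had a Cy5 signal well above background. Control 2 was the dimmest array and control 3 stood most apart in a principal component analysis, so the limma differences were also computed without both. After a filter on dim probes 15646 genes were tested.

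All 7 probes of the Hox10 and Hox11 genes passed that filter and were well above background on 16 of 16 arrays, in controls and mutants alike. Raw Cy5 signal over local background ran from 60.7 to 227 for the brighter Hoxa10 probe and from 26.9 to 64.4 for the dimmer. It ran from 19.9 to 83.8 for Hoxa11, 19.4 to 64.9 for Hoxc11 and 14 to 48.6 for Hoxc10. Hoxd10 (4.75 to 26) and Hoxd11 (5.01 to 13.9) were the dimmest, and these probe signals do not rank the genes against each other.

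Start-site windows of 2 genes are shown because the results below set Hoxd11, which fell in the double knockout, beside Hoxd13 of the same cluster, which rose. In mammals PRC2 is found mostly at promoters rich in CG, and CG is in capitals (it reads the same on both strands). Each window holds 250 bases before and 50 after a RefSeq start (GRCm38.p6), read 5′ to 3′ on the gene's strand, and Hoxd11 has 2 starts.
Hoxd11, upstream start, chr2:74679308-74679607, plus strand: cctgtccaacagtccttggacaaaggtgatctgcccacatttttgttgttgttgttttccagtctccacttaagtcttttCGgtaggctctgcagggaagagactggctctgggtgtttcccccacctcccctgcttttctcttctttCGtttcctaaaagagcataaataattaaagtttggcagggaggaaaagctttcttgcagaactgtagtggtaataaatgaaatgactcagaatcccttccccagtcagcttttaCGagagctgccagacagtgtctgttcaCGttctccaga
Hoxd11, downstream start, chr2:74682073-74682372, plus strand: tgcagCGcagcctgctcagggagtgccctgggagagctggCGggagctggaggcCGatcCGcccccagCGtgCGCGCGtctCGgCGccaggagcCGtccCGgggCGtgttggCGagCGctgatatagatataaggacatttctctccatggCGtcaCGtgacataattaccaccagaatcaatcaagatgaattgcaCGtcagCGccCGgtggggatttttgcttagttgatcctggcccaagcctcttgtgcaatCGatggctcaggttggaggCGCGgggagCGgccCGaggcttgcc
Hoxd13, chr2:74667975-74668274, plus strand: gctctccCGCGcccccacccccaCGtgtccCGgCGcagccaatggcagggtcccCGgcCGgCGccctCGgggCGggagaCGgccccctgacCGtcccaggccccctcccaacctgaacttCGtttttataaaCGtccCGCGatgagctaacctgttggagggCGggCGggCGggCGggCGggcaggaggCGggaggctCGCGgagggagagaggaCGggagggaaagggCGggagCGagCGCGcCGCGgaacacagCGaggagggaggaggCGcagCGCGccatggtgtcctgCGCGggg
The upstream Hoxd11 window holds 4 CG, a number that 68.6% of all 32851 start windows reach, and the downstream one holds 25, reached by 18.4%. The Hoxd13 window holds 37 (reached by 5.6%) and that of Hoxa13 holds 45 (1.9%). RefSeq windows matched 4 of the 6 members, and the other windows held 15 CG for Hoxa11, 22 for Hoxd10, and 12 and 21 at the starts of Hoxa10, against a median of 7 over all windows. Hoxd11 spans chr2:74679558-74687016 in that build and overlaps Hoxd10 (chr2:74684273-74695106). Hoxa10 lies at chr6:52231197-52240854 and Hoxa11 at chr6:52242105-52245810. Hoxc11 lies at chr15:102954526-102956701 and Hoxc10 at chr15:102966796-102971898.

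Of the Hox11 genes, Hoxd11 was the member that differed most between genotypes. It read -0.43, 0.14, -0.28 and -0.16 in double-knockout kidneys, -0.39, 0.02, -0.01 and -0.03 in Ezh1-het, 0.41, 0.25, 0.36 and -0.07 in Ezh2-KO, and 0.12, 0.33, 0.58 and 0.39 in control kidneys. The double-knockout and control arrays overlapped only by double knockout 2 (0.14) and control 1 (0.12), and the Ezh1-het arrays all lay below the controls. Means were -0.18 ± 0.24, -0.10 ± 0.19, 0.24 ± 0.22 and 0.36 ± 0.19 (SD, n = 4 each) in that order of genotypes. No 2 neighbours in that order differed by limma's adjusted p (0.866, 0.667 and 0.628).

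Hoxa11, the Hox11 gene of the HoxA cluster, had the widest spread. It read -0.32, -0.43, -0.41 and -0.09 in double-knockout kidneys, -1.19, -0.06, -0.21 and -0.51 in Ezh1-het, 0.42, 0.08, -0.13 and -1.23 in Ezh2-KO, and -0.04, -0.36, 0.30 and -0.35 in control kidneys. Ezh1-het 1 and Ezh2-KO 4 were far below the other arrays of their genotype, and all 4 genotypes overlapped. The means were -0.31 ± 0.15, -0.49 ± 0.50, -0.21 ± 0.71 and -0.12 ± 0.31 in the same order, and no difference between them exceeded that spread.

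Hoxc11 was the member whose mutant means all lay above the control mean. It read 0.65, 1.38, 0.65 and 0.86 in double-knockout kidneys, 0.23, 0.72, 0.75 and 0.70 in Ezh1-het, 1.09, 0.96, 0.31 and 0.13 in Ezh2-KO, and -0.02, 0.85, 0.65 and -0.04 in control kidneys. Controls fell into 2 high and 2 low arrays, and the high ones (0.85 and 0.65) reached into the double-knockout range. Means were 0.88 ± 0.34, 0.60 ± 0.25, 0.62 ± 0.48 and 0.36 ± 0.46 in the same order.

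Among the Hox10 genes, Hoxa10 had its lowest means in double-knockout and Ezh1-het kidneys on the brighter of its probes, and in Ezh1-het (-0.45 ± 0.19) and Ezh2-KO kidneys (-0.29 ± 0.35) on the dimmer. Its brighter probe read -0.56, -0.54, -0.65 and -0.60 in double-knockout kidneys, -0.73, -0.38, -0.53 and -0.51 in Ezh1-het, -0.13, -0.19, -0.33 and -0.65 in Ezh2-KO, and -0.23, -0.24, 0.29 and -0.33 in control kidneys. Neither the double-knockout nor the Ezh1-het arrays overlapped the controls, although control 3 stood well above the other controls. Its dimmer probe read -0.19, 0.08, -0.49 and -0.37 in double-knockout kidneys, -0.73, -0.33, -0.33 and -0.41 in Ezh1-het, 0.06, -0.27, -0.18 and -0.77 in Ezh2-KO, and -0.12, 0.45, 0.28 and -0.18 in control kidneys. On that probe the double-knockout arrays overlapped the controls and the Ezh1-het arrays did not. Over the 16 arrays the probes had a Pearson r of 0.73.

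Hoxc10 read -0.38, 0.08, -0.28 and 0.15 in double-knockout kidneys, -0.67, -0.39, -0.31 and -0.43 in Ezh1-het, -0.04, -0.08, -0.38 and -0.36 in Ezh2-KO, and 0.01, 0.13, 0.47 and -0.37 in control kidneys. The Ezh1-het arrays were the low ones, and control 4 lay among them. Hoxd10 read -0.40, -0.57, -0.34 and -0.05 in double-knockout kidneys, -0.64, 0.04, -0.18 and -0.07 in Ezh1-het, 0.14, 0.21, -0.17 and 0.02 in Ezh2-KO, and -0.22, -0.50, 0.26 and -0.38 in control kidneys. Here Ezh2-KO kidneys had the highest mean (0.05 ± 0.17), the double knockout the lowest (-0.34 ± 0.21), and controls (-0.21 ± 0.33) overlapped both.

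**Figure D1:**
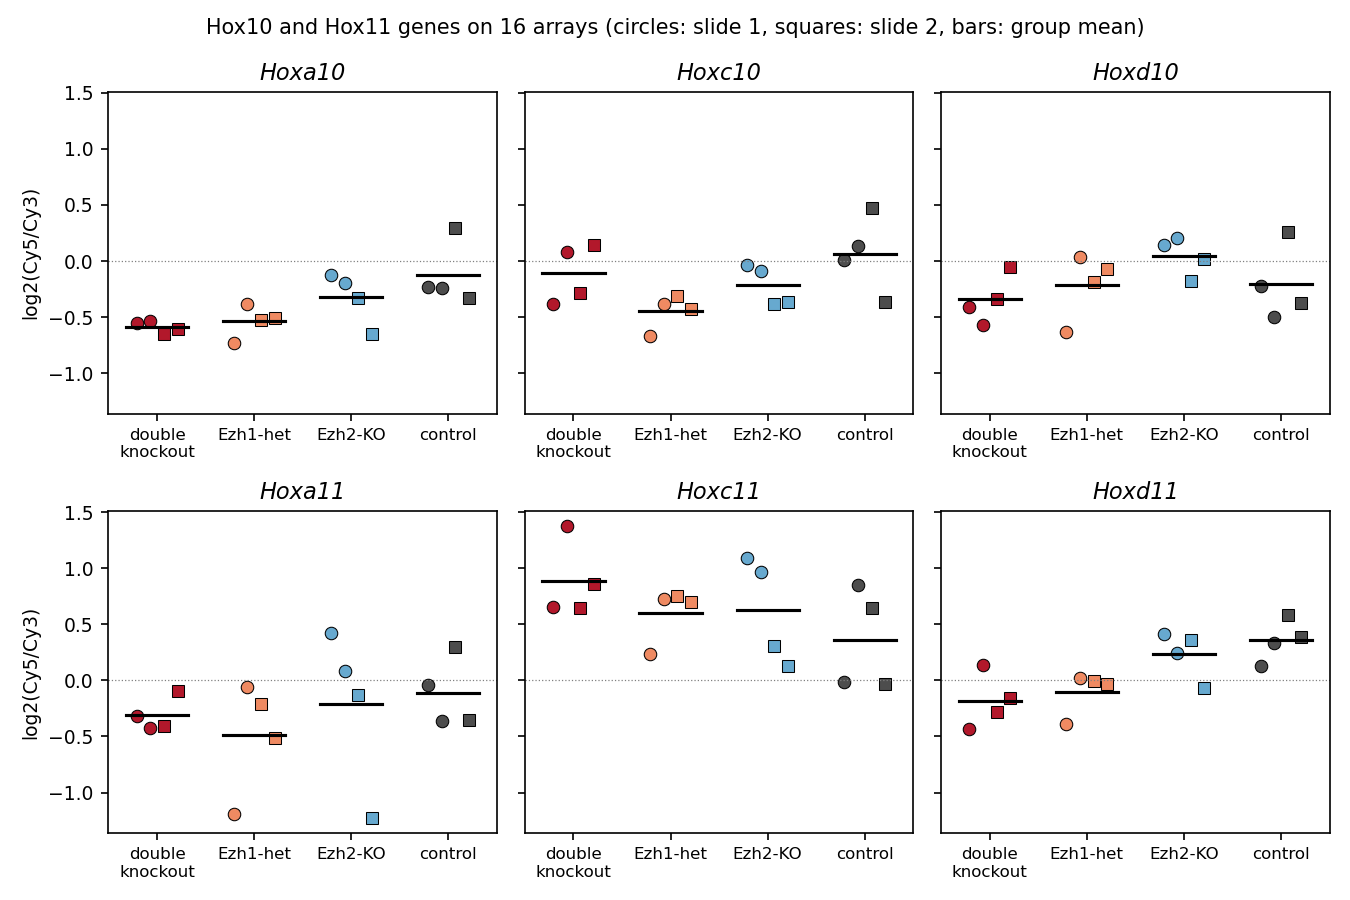
log2(Cy5/Cy3) of the 6 genes (vertical axis) on each of the 16 arrays, by genotype; circles are arrays of slide 1, squares those of slide 2, and bars are group means. Hoxa10 in double-knockout kidneys (-0.65 to -0.54) and Hoxd11 in Ezh1-het kidneys (-0.39 to 0.02) lie below every control, and Hoxc11 is the gene whose mutant means all lie above the control mean.

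In the double knockout against control, the question being what loss of both methyltransferases changes, Hoxd11 fell and no other member passed the test. Its difference was -0.54 (SE 0.14, 95% interval -0.84 to -0.24, 0.688-fold), with a limma adjusted p of 0.0345. That is 1 of 6 members, against 4.62% of all genes tested in either direction and 0.914% lower. Hoxa10 differed by -0.46 on its brighter probe (SE 0.13, adjusted p = 0.0608) and by -0.35 on its dimmer one (SE 0.18, adjusted p = 0.364). It was the 1 member whose arrays did not overlap the controls, against 9.34% of genes in either direction and 2.99% lower. Hoxc11 had the largest estimate upward, 0.52 (SE 0.25, adjusted p = 0.293), and an interval from -0.00 to 1.05. The intervals of Hoxc10 (-0.17, interval -0.51 to 0.17), Hoxd10 (-0.13, interval -0.49 to 0.22) and Hoxa11 (-0.20, interval -0.82 to 0.43) spanned 0. The median of the 6 differences was -0.184, against 0.00633 over all genes.

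The call of Hoxd11 lay close to the threshold. With single arrays left out its estimate ran from -0.65 to -0.46 and limma's adjusted p from 0.0132 to 0.115. The call was lost without double knockout 1 (-0.46), 3 (-0.51) or 4 (-0.55), and without control 2 (-0.55), 3 (-0.47) or 4 (-0.53). It was also lost without controls 2 and 3 together (-0.44, adjusted p = 0.227). Within slide 1 the difference was -0.38 and within slide 2 -0.70, neither past the threshold with 2 arrays a group. With each array centred on its median in place of loess, the median of all genes itself moved to 0.38, Hoxd11 was at -0.21 (adjusted p = 0.336), which is -0.59 relative to that median, and Hoxc11 passed instead (1.05, adjusted p = 0.00873, or 0.67 relative to it). Without control 3, Hoxa10 was at -0.32 in place of -0.46 (adjusted p = 0.114). Over all fits with single arrays left out Hoxa10 ran from -0.53 to -0.32, with limma's adjusted p from 0.0489 to 0.162.

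**Figure D2:**
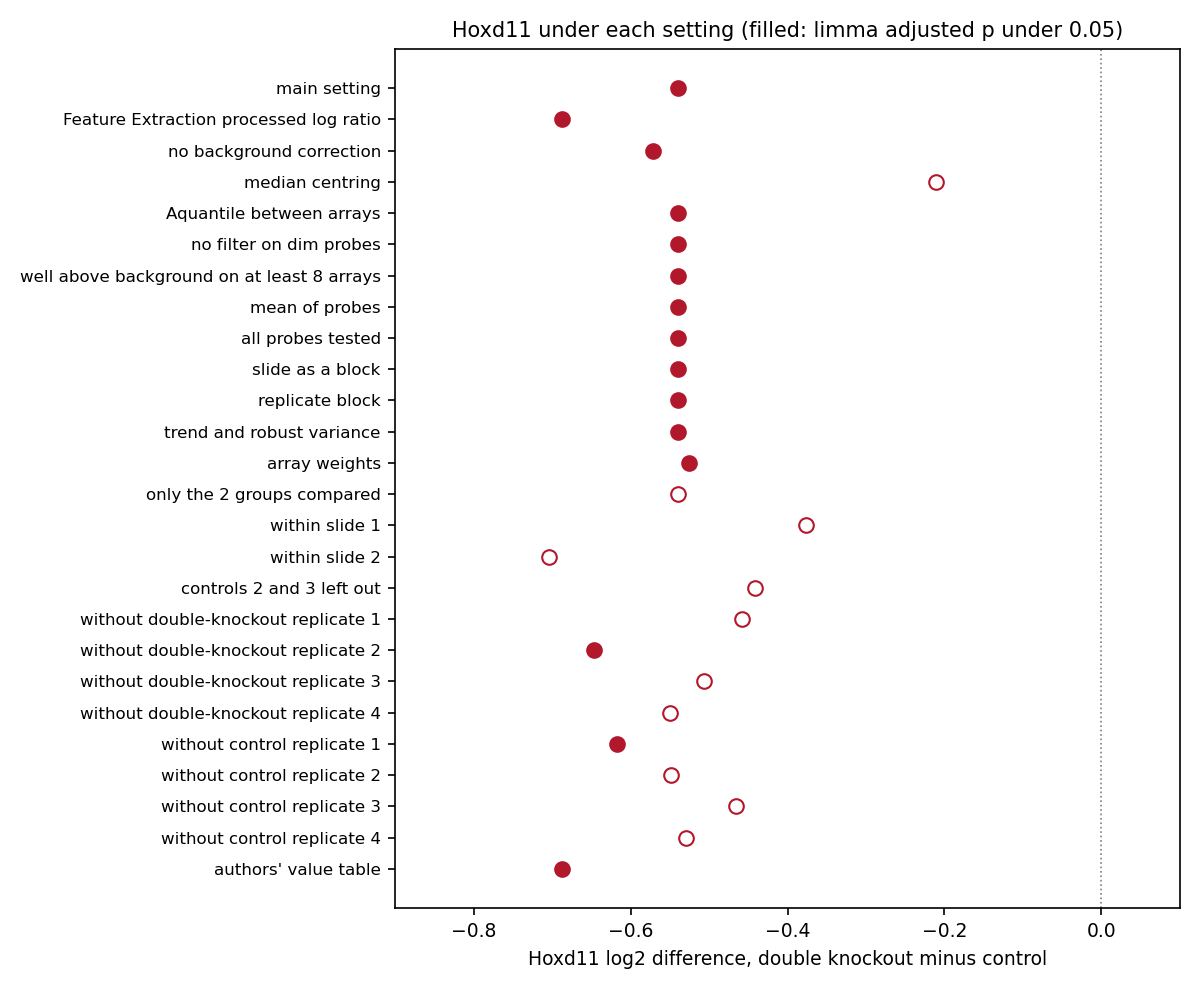
Difference of Hoxd11 between double-knockout and control kidneys (horizontal axis, log2) under each way of processing and with each array left out; filled points pass limma's adjusted p of 0.05. Every value is below 0, from -0.70 within slide 2 to -0.21 with median centring, and the open points are those that miss the threshold, among them both single slides and 6 of the 8 fits with an array left out.

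In Ezh1-het against control, 0 of 6 members passed limma's test, against 7.81% of all genes. An unadjusted p under 0.05 was reached by 3 members, and by 3981 of 15646 genes. The 3 members were Hoxd11 (-0.46, SE 0.14, adjusted p = 0.0564), Hoxc10 (-0.51, SE 0.16, 0.0640) and Hoxa10 (-0.41, SE 0.13, 0.0673). Hoxa10 and Hoxd11 did not overlap the controls, 2 of 6 members, where 17.9% of all genes did not overlap and 5.22% were lower without overlap. Hoxa11 was at -0.38 (SE 0.29), Hoxd10 at -0.01 (interval -0.36 to 0.35) and Hoxc11 at 0.24 (interval -0.28 to 0.76). The median of the 6 was -0.394, against 0.0515 over all genes. These values leaned on control 3 and Ezh1-het 1, and 2 of them turned with median centring (Hoxa10 at 0.23 and Hoxc10 at 0.03), where the median of all genes was 0.44 and the values relative to it were -0.21 and -0.42. Without control 3 they were -0.38 for Hoxd11, -0.37 for Hoxc10 and -0.27 for Hoxa10, and without Ezh1-het 1 they were -0.36, -0.43 and -0.35 for the same genes. Over all fits with single arrays left out, Hoxd11 ran from -0.53 to -0.36, Hoxc10 from -0.65 to -0.37 and Hoxa10 from -0.48 to -0.27. Limma's adjusted p ran from 0.04 to 0.133, 0.0201 to 0.15 and 0.0541 to 0.152 in the same order.

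In Ezh2-KO against control, where Ezh1 was intact, 0 of 6 members passed limma's test, against 3.08% of all genes. An unadjusted p under 0.05 was reached by 0 members, and by 3329 of 15646 genes. No member's arrays were free of overlap, against 11.2% of genes. Estimates were -0.28 for Hoxc10, -0.20 for Hoxa10, -0.12 for Hoxd11 and -0.10 for Hoxa11, and 0.26 for both Hoxd10 and Hoxc11. The intervals left room for changes of some size, the widest being that of Hoxa11 (-0.72 to 0.53) and the narrowest that of Hoxa10 (-0.48 to 0.08). Without Ezh2-KO 4 the estimate of Hoxa11 was 0.24.

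**Figure D3:**
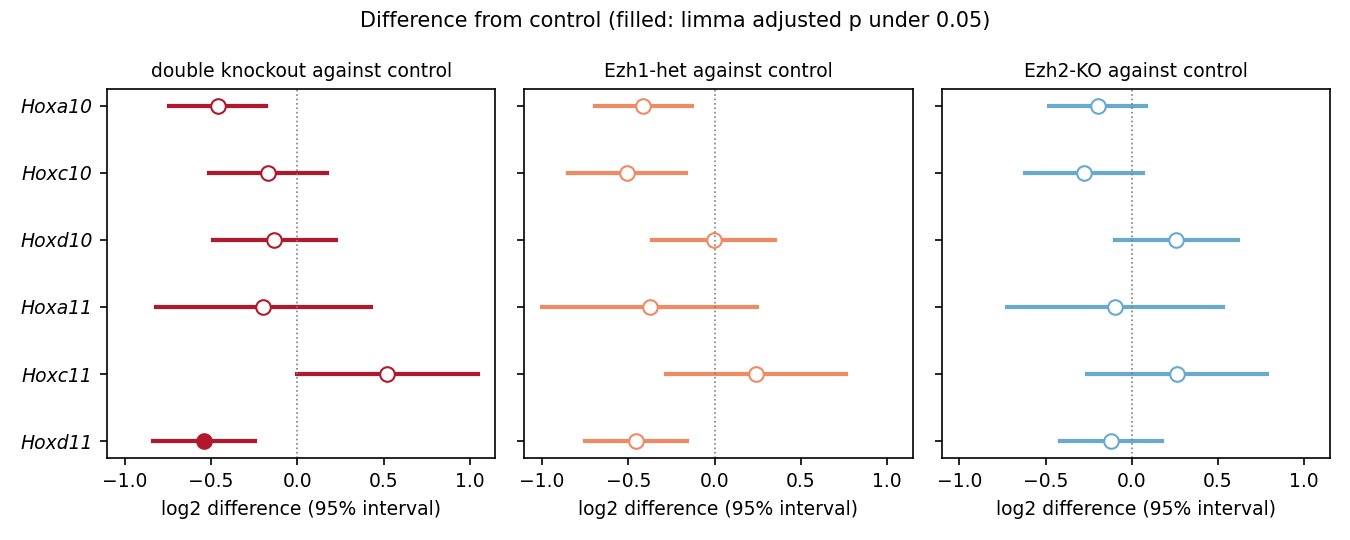
Difference of each gene from control (points, log2) with its 95% interval (lines), in double-knockout, Ezh1-het and Ezh2-KO kidneys, n = 4 arrays per group. The filled point is Hoxd11 in the double knockout (-0.54); Hoxc11 lies right of 0 in all 3 panels (0.52, 0.24 and 0.26) and every other gene except Hoxd10 in Ezh2-KO (0.26) lies left of it with loess, a side that several genes changed with median centring (Hoxa10 at 0.16, 0.23 and 0.37).

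Between the Ezh2-deficient genotypes, which ask what loss of Ezh1 adds, 0 of 6 members passed in any of the 3 comparisons. In the double knockout against Ezh2-KO, where 0.914% of genes passed, Hoxd11 was at -0.42 (SE 0.14, adjusted p = 0.197) and Hoxd10 at -0.39 (SE 0.17, adjusted p = 0.351). These 2 had an unadjusted p under 0.05, as did 1993 of 15646 genes. Against Ezh1-het, where 0.377% of genes passed for the double knockout, 0 members had an unadjusted p under 0.05, against 2143 of 15646 genes. The largest estimate there was that of Hoxc10 (0.34, interval -0.00 to 0.68). In Ezh1-het against Ezh2-KO, where 0.0575% passed, Hoxd11 alone had an unadjusted p under 0.05 (-0.34, SE 0.14, adjusted p = 0.667), against 1153 of 15646 genes.

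Single arrays stood low or high on several members at a time. Ezh1-het 1 was the lowest array of its genotype on 7 of 7 probes, Ezh2-KO 4 on 5, and control 3 was the highest control on 5. Averaged over the 6 genes, Ezh1-het 1 stood at -0.56, Ezh2-KO 4 at -0.36 and control 3 at 0.43. Pairwise r over the 16 arrays, a description that includes the differences between genotypes, of arrays that share the Cy3 RNA and the scaling, ran between 0.09 and 0.85, with Hoxa10 and Hoxd11 the closest pair and Hoxc11 at 0.09 with each of those 2.

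Markers of nephron progenitors, the cells that express Six2 and Cited1, moved with the members. The mean of the 6 measured of 6 such markers was lowest on Ezh1-het 1 (-0.67) and highest on control 3 (0.50). It ran from -0.52 to -0.08 in double-knockout, -0.67 to -0.28 in Ezh1-het, -0.42 to 0.09 in Ezh2-KO and -0.11 to 0.50 in control kidneys. All 6 were well above background on all arrays. Of the 6, 2 fell in double-knockout, 3 in Ezh1-het and 2 in Ezh2-KO kidneys, and Cited1 fell in each. Of all genes 0.914% fell in the double knockout, and 7.81% and 3.08% passed in either direction in Ezh1-het and Ezh2-KO kidneys. The medians of the 6 against control were -0.569, -0.64 and -0.402, against 0.00633, 0.0515 and 0.0603 over all genes. The 8 stroma markers, all measured, ran from -0.18 to 0.37, -0.38 to 0.61, -0.22 to 0.94 and -0.76 to 0.49 in the same order. The 5 proximal tubule markers ran from -2.54 to -1.04, -0.23 to 0.47, -2.50 to 0.23 and -2.15 to 0.41, with control 3 at -2.15. The part of any of these in the differences of the Hox genes was not tested.

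**Figure D4:**
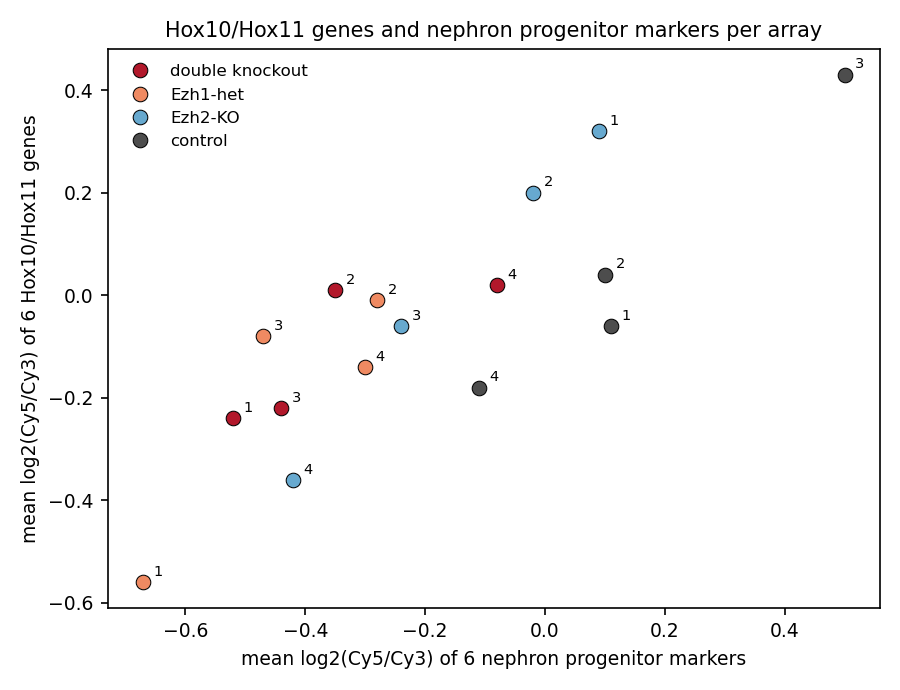
Mean log2(Cy5/Cy3) of the 6 Hox10 and Hox11 genes (vertical axis) against that of 6 nephron progenitor markers (horizontal axis), 1 point per array, numbered by replicate and coloured by genotype. Ezh1-het 1 is lowest on both axes (-0.67 and -0.56) and control 3 highest on both (0.50 and 0.43).

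Among the next genes along the clusters, some of those of groups 12 and 13 rose. Of 13 neighbours, Evx1 did not pass the filter and Hotair was not among the named probes, and 4 of the remaining 11 rose in the double knockout, 7 did not pass and none fell. Of all genes 3.71% rose, but Hoxc12 and Hoxc13 passed the filter on dim probes only through the double-knockout arrays on which they are high. Hoxd13 and Hoxa13 passed it only through the double-knockout and Ezh1-het arrays on which they are high. The count of 4 is therefore not read against that share. Hoxd13 read 2.41, 2.12, 2.70 and 2.54 in double-knockout kidneys, 1.07, 1.29, 1.04 and 1.05 in Ezh1-het, -0.04, -0.01, 0.20 and 0.32 in Ezh2-KO, and 0.22, -0.06, -0.05 and -0.19 in control kidneys. All double-knockout arrays lay above all Ezh1-het arrays, and those above the rest. Hoxd13 shapes digits and the genital and lower urinary tract. Its probe was not well above background on any control, so its rise is a bound set by background: at least 5.52-fold.

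Hoxa13 read 1.57, 1.66, 1.63 and 1.11 in double-knockout kidneys, 1.23, 1.07, 0.79 and 0.91 in Ezh1-het, 0.18, 0.02, 0.31 and 0.05 in Ezh2-KO, and -0.07, -0.02, 0.17 and 0.19 in control kidneys. It was at least 2.68-fold higher in the double knockout than in controls. Hoxc13 (at least 1.73-fold) and Hoxc12 (at least 1.72-fold) were well above background on 4 double-knockout arrays and on none of the other 12, which is how they entered the test, so their adjusted p is not given as support. In Ezh1-het kidneys 2 of 11 rose, Hoxd13 by a factor of 2.196 or more and Hoxa13 by 1.91 or more. Of all genes 5.91% rose there, but these 2 entered the test only through double-knockout and Ezh1-het arrays on which they are high. Their count is not read against that share, and their adjusted p against control is not given as support. In Ezh2-KO 0 of 11 passed, with 2 at an unadjusted p under 0.05. Hoxd13 also differed between the double knockout and Ezh1-het (1.33, SE 0.12, adjusted p = 6.15e-05).

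The other neighbours did not pass. Hoxa9 was at -0.55 in the double knockout (SE 0.20, adjusted p = 0.146), Hoxc9 at -0.14 and Hoxd9 at 0.05, and Hoxd12, which lies between Hoxd11 and Hoxd13, was at 0.26 (SE 0.20, adjusted p = 0.574). The antisense transcript Hoxa11os was at -0.00 (SE 0.15, adjusted p = 0.994). Over all 32 measured Hox genes outside groups 10 and 11, 7 rose and 1 fell in the double knockout, with a median of -0.0836. Of all genes 4.62% passed, but the 7 include genes that passed the filter only through arrays on which they are high. These are Hoxd13, Hoxa13, Hoxb13, Hoxc12 and Hoxc13, so the count is not read against that share. Of these, Hoxb13 rose at least 4.87-fold and was not well above background on any control or Ezh2-KO array. The fall was that of Hoxb3 (-0.92, SE 0.23, adjusted p = 0.0303), whose other probe was at -0.18 and whose call ended under 9 of 24 alternatives. In Ezh1-het kidneys 5 rose and 2 fell, where 7.81% of all genes passed. The 5 include Hoxd13, Hoxa13 and Hoxb13, so that count is not read against the share either. In Ezh2-KO 1 rose, where 3.08% of all genes passed.

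The distance within a cluster was described by subtracting, array by array, the log2 ratio of the Hox11 gene from that of the group 13 gene. For HoxD this was 2.63 ± 0.45 in the double knockout, 1.21 ± 0.19 in Ezh1-het, -0.12 ± 0.36 in Ezh2-KO and -0.38 ± 0.33 in control kidneys (SD, n = 4 each). For HoxA it was 1.80 ± 0.41, 1.49 ± 0.64, 0.35 ± 0.68 and 0.18 ± 0.31 in the same order. For HoxC it was -0.17 ± 0.57, -0.47 ± 0.34, -0.70 ± 0.48 and -0.44 ± 0.47, and all genotypes overlapped controls. In controls the group 13 probes gave no signal well above background, so the distances in controls rest on background-level values, and the pairs were picked with the rise of the group 13 genes known. The values are therefore given with no test and only as a description. They do not show that the Hox11 gene was constant.

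**Figure D5:**
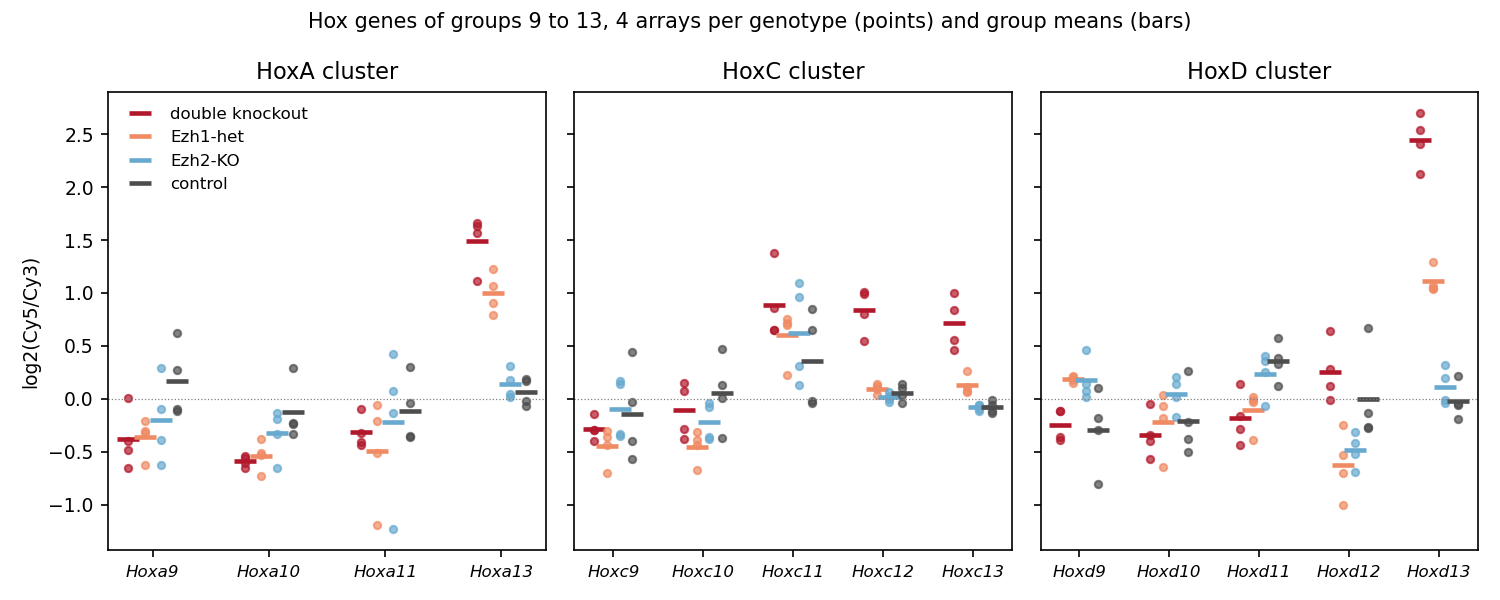
log2(Cy5/Cy3) (vertical axis) of the genes of groups 9 to 13 in the HoxA, HoxC and HoxD clusters, with 4 arrays per genotype (points) and their mean (bars). Hoxd13 lies between 2.12 and 2.70 in the double knockout and between 1.04 and 1.29 in Ezh1-het kidneys, against -0.19 to 0.22 in controls, while the group 10 and 11 genes of the same cluster stay between -0.64 and 0.58 in all genotypes.

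Markers of tissues where group 13 genes are normally active were set beside these rises. Of 3 hindlimb and body wall markers, Tbx4 was not well above background on any array and Tbx5 on 2 of 16. Pitx1 read 1.09 to 1.79 in double-knockout, 0.32 to 0.72 in Ezh1-het, -0.34 to 0.22 in Ezh2-KO and -0.24 to 0.81 in control kidneys. The 4 genital tract markers, which include Wt1 and Emx2 that kidney also expresses, averaged -0.18 to -0.05, 0.11 to 0.25, -0.14 to 0.20 and -0.46 to 0.00 in the same order. Of 6 ureter and urothelium markers 3 were measured, and they averaged 0.04 to 0.47, -0.02 to 0.13, -0.29 to 0.51 and -0.18 to 0.01 in the same order. The double-knockout averages thus lay above every control average. Of these 3 markers 1 rose in the double knockout, where 3.71% of all genes rose, and 0 rose in Ezh1-het or Ezh2-KO kidneys. Among the 3, Upk3a was well above background on only 6 of 16 arrays. The part of such tissue in the rises was not tested.

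The partners and targets of Hox11 in the metanephric mesenchyme went both ways. Of 11 measured genes, 2 rose and 1 fell in the double knockout, where 3.71% of all genes rose and 0.914% fell, with a median of 0.00358. Among them Six4, a homeobox gene, was at 0.48 (SE 0.10, adjusted p = 0.0118), and Cited1, a marker of the uncommitted progenitor, at -0.90 (SE 0.13, 5.86e-04). In Ezh1-het kidneys the median was -0.215 (0.0515 over all genes), 5 of 11 had an unadjusted p under 0.05 and 4 did not overlap the controls. Over all genes 3981 of 15646 had such a p and 17.9% did not overlap. In Ezh1-het and Ezh2-KO kidneys 1 of 11 rose and 1 fell, where 7.81% and 3.08% of all genes passed, the fall being that of Cited1 (-0.79 and -0.69, adjusted p of 0.00254 and 0.0104). The genes that Hox11 proteins are known to activate did not pass. Six2 was at -0.39, -0.49 and -0.07 in double-knockout, Ezh1-het and Ezh2-KO kidneys (SE 0.26, adjusted p of 0.496, 0.252 and 0.900), and Gdnf at 0.63, 0.32 and 0.74 (SE 0.22, adjusted p of 0.139, 0.381 and 0.0771). The cofactors Eya1 (-0.15, -0.30 and -0.20) and Pax2 (0.00, -0.26 and -0.05) did not pass either.

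Of 18 genes of renal stroma, where Hox10 paralogs act, 2 rose and none fell in the double knockout, against the same shares of 3.71% and 0.914% over all genes. They were Meis1 (0.86, SE 0.17, adjusted p = 0.00514), a cofactor of Hox proteins, and Foxd1 (0.72, SE 0.20, 0.0450), the defining factor of cortical stroma, whose call ended under 12 of 24 alternatives. In Ezh1-het kidneys Meis1 rose (0.56, SE 0.17, 0.0489) while 2 genes fell, among them Meis2 (-0.73, SE 0.19, 0.0336), and in Ezh2-KO Meis1 (0.80, SE 0.17, 0.0173) and the renin gene Ren1 (0.70, SE 0.12, 0.00410) rose. Of all genes 7.81% passed in Ezh1-het and 3.08% in Ezh2-KO kidneys. The Ezh1-het calls of Meis1 and Meis2 were lost under 17 and 10 of 24 alternatives. The stroma markers above, which include Foxd1 and Meis1, ran higher in mutants on some arrays and overlapped the controls in each genotype. Of 9 TALE cofactors, homeodomain proteins that bind DNA with Hox proteins, Meis1 and Pbx3 (0.43, SE 0.09, adjusted p = 0.00982) rose in the double knockout and none fell. Of all genes 3.71% rose and 0.914% fell there. In Ezh1-het kidneys 1 of the 9 rose and 2 fell, and in Ezh2-KO 1 rose and 0 fell, beside the shares of 7.81% and 3.08%.

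The genes most like each member over the 16 arrays were taken from all genes tested, by Pearson r as a description. For Hoxa11 the nearest was Hoxa5 of the same cluster (r = 0.88), then D2hgdh (0.85) and Chst5 (0.84). For Hoxd11 they were Vtn (0.88), Cutal (0.87) and Xpnpep1 (0.86), and for Hoxc11 Flrt1 (0.91), Prr5l (0.87) and Ism1 (0.82). Hoxa10 was close to Ramp2 (0.89) and Amigo1 (0.88), Hoxc10 like Ttc28 (0.94), Ssbp4 (0.93) and Sobp (0.93), and Hoxd10 like Rabep2 (0.98), Vps16 (0.95) and Plekhm2 (0.95). No Hox10 or Hox11 gene was among the nearest 3 of any member.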

How the data were processed

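Per the labels, total RNA of each kidney sample was labelled with Cy5 and hybridised with Cy3-labelled RNA of control 1 on 2-colour Agilent arrays, without dye swaps. The array of control 1 thus compares that RNA with itself, and a dye bias stays in every level. A dye effect that a probe has equally on all arrays does not enter the differences between genotypes. Per the file headers, Agilent's Feature Extraction 10.7.3.1 produced the deposited intensity columns, which are raw medians of spot and background and processed signals. The authors' value table holds the log10 ratio of the processed signals, rounded. The files hold median and not mean signals, so medians were used.

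Intensities were background-corrected (normexp, offset 50) and loess-normalised within arrays, giving no weight to control spots and dropping spots flagged as outliers, with limma 3.58.1 (R 4.3.3). Probes were named through their RefSeq accession in a table of assembly GRCm38.p6, kept when 4 or more of 16 arrays had a Cy5 signal well above background (34731 probes), and the probe of highest mean intensity stood for its gene (15646 genes). Differences of log2(Cy5/Cy3) came from 1 limma fit of 4 group means without covariates, adjusted by Benjamini-Hochberg within each of 6 comparisons at a threshold of 0.05. All tests were two-sided. Tested on simulated data (15646 genes, double knockout against control), the fit called 47 and 46 of 50 genes changed by -1 and 1, 38 and 31 of 50 changed by -0.5 and 0.5, and 7 of 15446 unchanged genes. The arrays are biological replicates per the labels. They lie on 2 slides with 2 arrays of every genotype each, so a slide block leaves each difference as it is. Where no array of a group measured a probe well above background, "at least" gives the smaller of the fold of the ratios and the fold in Cy5 alone, after loess and Aquantile scaling, over the higher of the dim probe's own level and the lowest level of a probe well above background. The Cy5 fold is open to dye bias.

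Named were the 6 members with all probes, list genes past the threshold (all when 5 or fewer, otherwise 4 in each direction), core genes of the mesenchyme and stroma, and the 3 genes most like each member. The members and lists were chosen with earlier results of these data known. Promoter sequences are from RefSeq (GRCm38.p6), and the array grid was drawn on another build. With 4 arrays per genotype, their number limits precision. Alternatives were other background corrections, scalings, filters, probe rules, variance models, blocks, single slides and arrays left out. Some genes that this rule selects are not reported here.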

Additional observations from a re-analysis of the deposited data

Results flagged for a closer look

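Of 28 sets of 4 arrays (7 probes in 4 genotypes), 3 held an array far from the other 3 by Dixon's criterion, where chance flags about 1 in 20 such sets. Control 3 read 0.29 on the brighter Hoxa10 probe, against -0.33 to -0.23 on the other controls. Ezh1-het 1 read -0.39 for Hoxd11, against -0.03 to 0.02 on the other Ezh1-het arrays. It also read 0.23 for Hoxc11, against 0.70 to 0.75. Ezh1-het 1 thus holds 2 of the 3.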

How the results depend on the processing

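The number of Hox10 and Hox11 genes past the threshold in the double knockout against control was 1. It was 0 with only the 2 groups compared, within slide 1, within slide 2 and without controls 2 and 3, 3 with array weights (Hoxa10 and Hoxd11 lower, Hoxc11 higher), and 0 to 1 with single arrays left out. In Ezh1-het against control it was 0, and 1 with processed signals, median centring, the mean of probes or trend and robust variances (Hoxd11, Hoxc11, Hoxa10 and Hoxd11), and 0 to 1 with single arrays left out. In Ezh2-KO against control it was 0, and 2 with median centring (Hoxd10 and Hoxc11). In the double knockout against Ezh2-KO it was 0, and 1 with array weights (Hoxd11). Array weights give poorly fitting arrays less say, and the other causes were not tested. With median centring 5364, 8037 and 6839 of 15646 genes passed against control in double-knockout, Ezh1-het and Ezh2-KO kidneys, against 723, 1222 and 482 with loess.

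Median centring also reversed the sign of members' estimates that had not passed. In the double knockout against control Hoxa10 was at 0.16, its dimmer probe at 0.18, Hoxc10 at 0.33, Hoxd10 at 0.26 and Hoxa11 at 0.36. In Ezh1-het against control these were 0.23, 0.0095, 0.027, 0.42 and 0.22 in the same order. In Ezh2-KO against control Hoxa10 was at 0.37, its dimmer probe at 0.13, Hoxc10 at 0.22, Hoxa11 at 0.44 and Hoxd11 at 0.22, and in Ezh1-het against Ezh2-KO Hoxc11 was at 0.012. Relative to the median of all genes most of these lay below 0, as given above for Hoxa10, Hoxc10 and Hoxd11.

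Other reversed values all belonged to estimates that had not passed. Against control they were 0.10, 0.058 and 0.085 for Hoxd10 in Ezh1-het with array weights, within slide 1 and without controls 2 and 3. They were 0.071 for Hoxc10 in the double knockout without controls 2 and 3. In Ezh2-KO they were 0.067 for Hoxa11 with array weights, 0.075, 0.46 and 0.10 for Hoxa10, Hoxa11 and Hoxd11 within slide 1, and -0.018 and -0.088 for Hoxd10 and Hoxc11 within slide 2. In the double knockout against Ezh2-KO they were -0.034 and -0.033 for Hoxc10 and Hoxc11 and -0.10 for the dimmer Hoxa10 probe with array weights, -0.090 and -0.012 for Hoxc10 and Hoxc11 within slide 1, and 0.43 for Hoxa11 within slide 2. In the double knockout against Ezh1-het they were 0.078 for Hoxa10 with the mean of probes, 0.010 and 0.035 for Hoxa10 and Hoxd11 within slide 1, and -0.065 for the dimmer Hoxa10 probe within slide 2. In Ezh1-het against Ezh2-KO they were 0.0032, 0.32, 0.51 and 0.11 for Hoxc10, Hoxa11, Hoxc11 and the dimmer Hoxa10 probe within slide 2.

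With single arrays left out, Hoxd10 ran from -0.10 to 0.15 in Ezh1-het and from -0.23 to 0.023 in the double knockout against control, and Hoxa11 from -0.31 to 0.24 in Ezh2-KO against control. Hoxa11 ran from -0.053 to 0.32 and Hoxa10 from -0.11 to 0.0034 in the double knockout against Ezh1-het. Hoxa11 ran from -0.44 to 0.11 and the dimmer Hoxa10 probe from -0.11 to 0.16 in the double knockout against Ezh2-KO, and Hoxc11 from -0.19 to 0.14 in Ezh1-het against Ezh2-KO. With the replicate block Hoxd11 stayed at -0.54 (limma adjusted p = 0.0349), and the block changed no call of a member and ended that of Meis1 in Ezh1-het (0.0597). Replicate numbers share no stated source. Same-numbered arrays correlated between -0.48 and 0.51 in their deviations from group means, and 5 of 16 arrays matched their own number best. Values for genes outside groups 10 and 11 under these settings were chosen after seeing the data. The array of control 1 sets the Cy3 RNA against itself and there are no dye swaps, so a dye effect on a probe enters every level but not the differences between genotypes.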
